A study of Mus musculus with 8 samples.

Results

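The genes described here are 35 genes of nephron formation, taken by symbol from the 47729 genes of the deposited tables. They mark nephron progenitors, the early nephron and the tip of the ureteric bud, or encode the signals that pass between them. Each of the 35 symbols matched 1 row. The rule takes genes by their known roles and uses no measured value, but the set was drawn up with earlier results of these data known. They were measured by RNA-seq in whole mouse kidneys on postnatal day 8. In 4 kidneys, labelled as a nephron-specific Kctd1 knockout, a floxed Kctd1 gene was combined with Six2Cre (Six2Cre+KCTD1fl/fl), so that Cre acts where the Six2 promoter is active. The other 4 kidneys came from control littermates labelled wildtype. The labels leave out whether the controls carried floxed alleles or Cre, and whether each library came from its own animal. The p-values therefore measure the spread between these libraries, which may be partly technical.

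During development, cap mesenchyme cells that express Six2 and Cited1 renew themselves beside the tips of the branching ureteric bud. They secrete GDNF, which acts on the RET receptor of the bud and drives branching. The bud returns Wnt9b, which induces part of the cap to form the renal vesicle, the first epithelial stage of the nephron, where Wnt4, Fgf8, Lhx1 and Pax8 act. Notch signalling then helps divide the vesicle into future segments. In the mouse the progenitor pool is used up in the first days after birth. Several of the same genes stay active in mature tubule, collecting duct, vessels or stroma, so their RNA in a whole kidney need not come from progenitors. Six2-driven Cre reaches the nephron epithelium and leaves the ureteric bud, stroma and vessels outside its lineage.

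The libraries held 14457760 to 20741076 counts. Kctd1, the targeted gene, measured 22.4, 25.4, 25.8 and 23.5 CPM (a scaled share of the counts of a library) in knockout 1 to 4 and 32.1, 28.9, 32.6 and 32.6 CPM in wildtypes 1 to 4. Every knockout library thus lay below every wildtype library, although a count over the whole gene mixes deleted with intact exons, and cell types outside the nephron keep the gene. Its log2 fold change of -0.38 ± 0.09 (SE) did not pass the test used below (edgeR adjusted p = 0.279). DESeq2 called it (adjusted p = 0.0160, the lowest of 18 alternatives, which reached 0.630). The tissue label fits its markers, which were 6 of proximal tubule, 2 of thick ascending limb and 4 of collecting duct principal cells. All were at 1 TPM (a scaled share of transcripts, corrected for length) or more in every library. Their averages ran from 10.1 TPM for Cubn to 303 TPM for Slc34a1, both of proximal tubule. The loop gene Umod was at 214 TPM and the collecting duct gene Aqp2 at 90.6 TPM. Knockout 2 stood apart in composition. In that library 51.1% of all TPM lay in 25 rows that reached 5000 TPM somewhere, against 29.4% to 36.0% in the other 7. TPM sums to the same total in each library, so less of it was left for the other genes in knockout 2. Single genes could still be highest there, such as Notch1 at 36.2 TPM. So TPM, which is per transcript length, is used below for levels of different genes side by side, and CPM scaled by edgeR's TMM factors for the comparison of genotypes.

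Most of the 35 genes were still detected on day 8. Cap mesenchyme genes differed: Six2, Eya1, Osr1 and Meox2 were low, whereas Cited1, Meox1, Sall1, Tmem100 and Itga8 reached 1 TPM in all 8 libraries. At 1 TPM or more in all 8 libraries stood 24 genes, of which 8 reached 10 TPM in every library. Another 2, Gfra1 and Lhx1, passed 1 TPM in some libraries. The remaining 9 were below 1 TPM throughout: Six2, Eya1, Osr1, Meox2, Gdnf, Ret, Fgf8, Fgf20 and Hes5. In whole tissue, fewer cells of a type and less RNA per cell cannot be told apart.

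**Figure D1:**
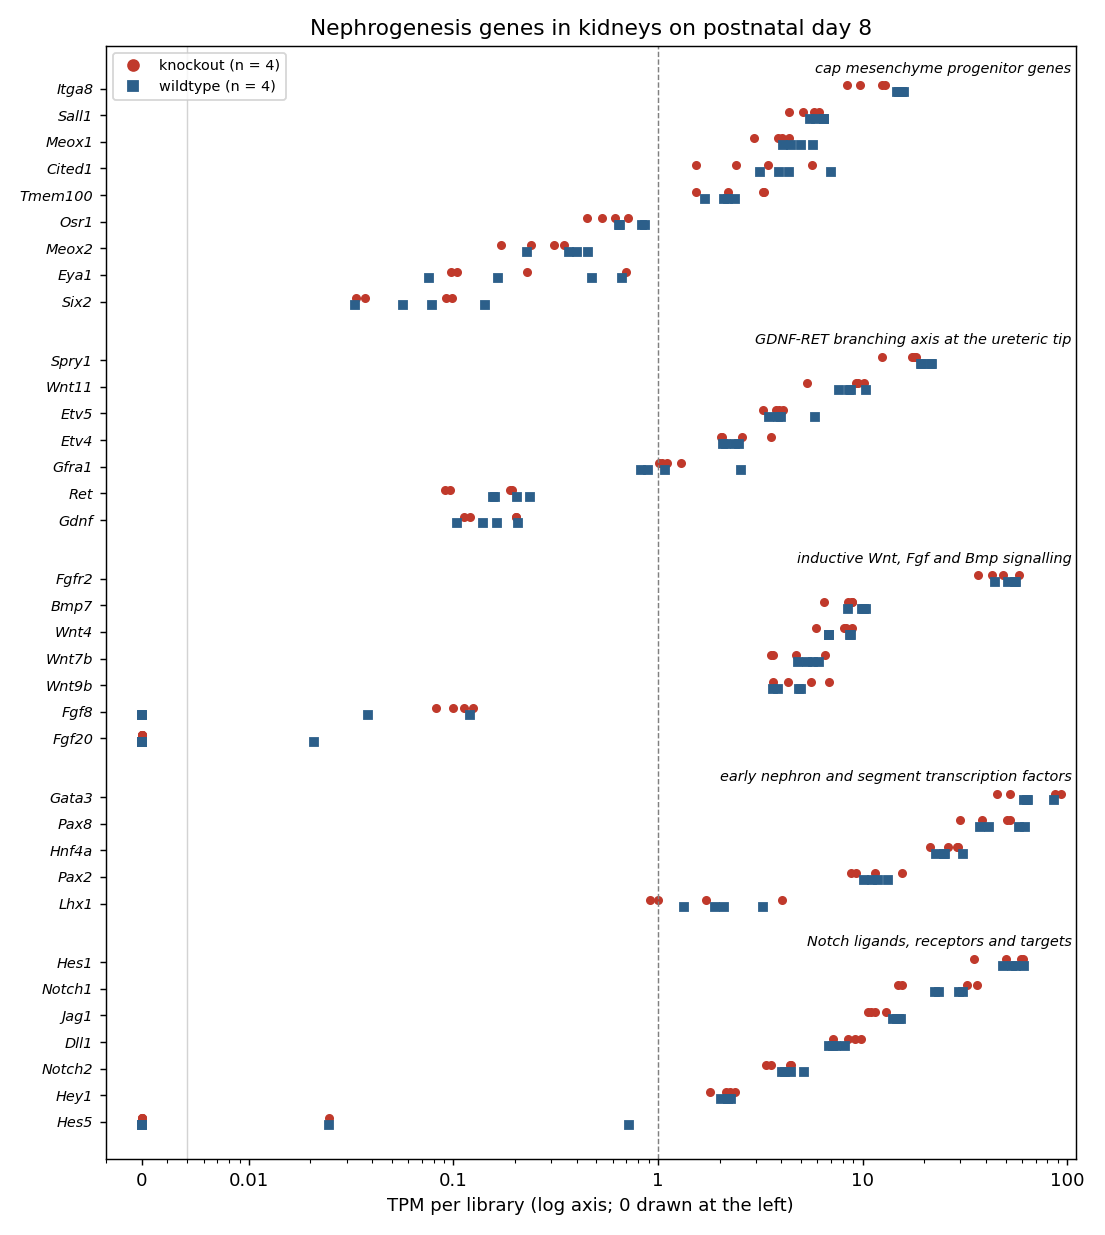
TPM of each of the 35 genes in each library, on a log axis with 0 drawn at the left edge, grouped by role; circles are the 4 knockout and squares the 4 wildtype libraries, and the dashed line marks 1 TPM. Six2, Ret, Gdnf, Fgf8, Fgf20 and Hes5 lie left of the line in all libraries, and Gata3, Hes1, Fgfr2 and Pax8 lie far to its right.

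The TPM order depends in part on which transcripts the quantification assigned reads to. Notch1 and Notch2 have longest coding transcripts of 9.49 and 10.5 kb in the GENCODE annotation, yet 1 TPM stood for 2.16 CPM of Notch1 and 21.2 CPM of Notch2. The TPM of Notch1 therefore rests on much shorter transcripts, and the same holds for Gata3, at 0.848 CPM per TPM with a longest coding transcript of 3.21 kb. By CPM per kb of the longest coding transcript, a measure added after the data were seen, Hnf4a was at rank 1 of the 35 instead of 5, Gata3 at rank 8 instead of 1, and Notch1 at rank 19 instead of 6. On this measure, scaled to the median member, 23 genes reached the level of 1 TPM in all libraries, and Cited1 did not, with 0.595 in its lowest library.

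Six2, the transcription factor that keeps nephron progenitors undifferentiated, spans 85684277 to 85688274 of chromosome 17 on the minus strand of GRCm38. It had 16 counts in the 4 knockout libraries together and 21 in the 4 wildtype libraries. Its level was 0.377, 0.167, 0.345 and 0.0996 CPM in knockouts 1 to 4, against 0.304, 0.200, 0.147 and 0.481 CPM in wildtypes 1 to 4, and the groups overlapped fully. Eya1, which encodes a cofactor of Six2 and its relatives, measured 0.566, 1.72, 0.552 and 3.78 CPM in the knockouts and 0.426, 0.936, 3.68 and 2.45 CPM in wildtype, so that it spread 8.87-fold between libraries of both genotypes. Osr1, a transcription factor of the earliest kidney mesenchyme, measured 1.95, 2.17, 2.62 and 2.14 against 2.98, 2.34, 2.95 and 2.16 CPM. These values overlap too. Cited1, a transcriptional coregulator known as a marker of the least differentiated progenitors, was far above Six2, at 3.93 ± 1.75 TPM against 0.0715 ± 0.0389 TPM (SD, n = 8). It measured 1.07, 2.22, 4.07 and 2.29 CPM in the knockouts and 2.13, 3.14, 4.81 and 2.50 CPM in wildtype.

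The other cap genes were split by level. Sall1, a zinc finger transcription factor of progenitors, was at 63.1, 59.8, 53.3 and 56.5 CPM in the knockouts and 63.9, 61.6, 55.4 and 61.0 CPM in wildtype, among the steadiest of the set. The homeobox gene Meox1 stood at 4.32 TPM and its relative Meox2 at 0.315 TPM on average. Meox2 measured 0.754, 1.39, 1.52 and 1.29 CPM in the knockouts and 1.52, 1.0, 1.72 and 1.83 CPM in wildtype, with overlap. Tmem100, which encodes a small membrane protein also known from endothelium, stood at 2.33 TPM. It was the 1 tested cap gene on the higher side, at 10.2, 6.34, 6.97 and 9.81 CPM in the knockouts and 6.27, 5.35, 6.68 and 6.78 CPM in wildtype (log2 fold change 0.41 ± 0.19 SE, edgeR adjusted p = 0.814), and the groups overlapped.

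Across all 35 genes, 0 passed the test between genotypes. Counts were tested by the quasi-likelihood method of edgeR, and p-values were adjusted over 18548 genes after Benjamini and Hochberg with a threshold of 0.05. That could be done for 31 of the 35. Six2, Fgf8, Fgf20 and Hes5 had too few counts. Over all tested genes 15 passed, which is 0.0809% (0.0323% higher and 0.0485% lower in knockout), so that 0 of 31 is near that background. An unadjusted p under 0.05 was found for 5 of the 31, against 6.18% of all tested genes. Of the 5, Dll1 and Wnt9b were on the higher side (3.11% of all genes) and Itga8, Jag1 and Spry1 on the lower (3.08%). DESeq2 called 1 of the 31, Itga8, and 0.771% of all genes. The median log2 fold change of the 31 was -0.04 and that of all tested genes 0.00. Below 0 were 18 of the 31, against 49.7% of all tested genes. The 95% intervals lay within a 2-fold change in either direction for 26 of the 31, against 80.7% of all tested genes, and within 1.5-fold for 17. The 5 genes whose interval reached past 2-fold were Cited1, Eya1, Ret, Lhx1 and Notch1. On simulated counts for these 18548 genes the test recovered 83.6% of 2-fold and 20.9% of 1.5-fold changes, so smaller changes would often be missed. Every simulated gene had the same biological spread (CV 20.7%), and the altered ones were at 1 CPM or more. These shares therefore do not cover members that varied more, such as Eya1, Lhx1 and Notch1 (CV 91.8%, 71.2% and 58.0% in knockout).

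**Figure D2:**
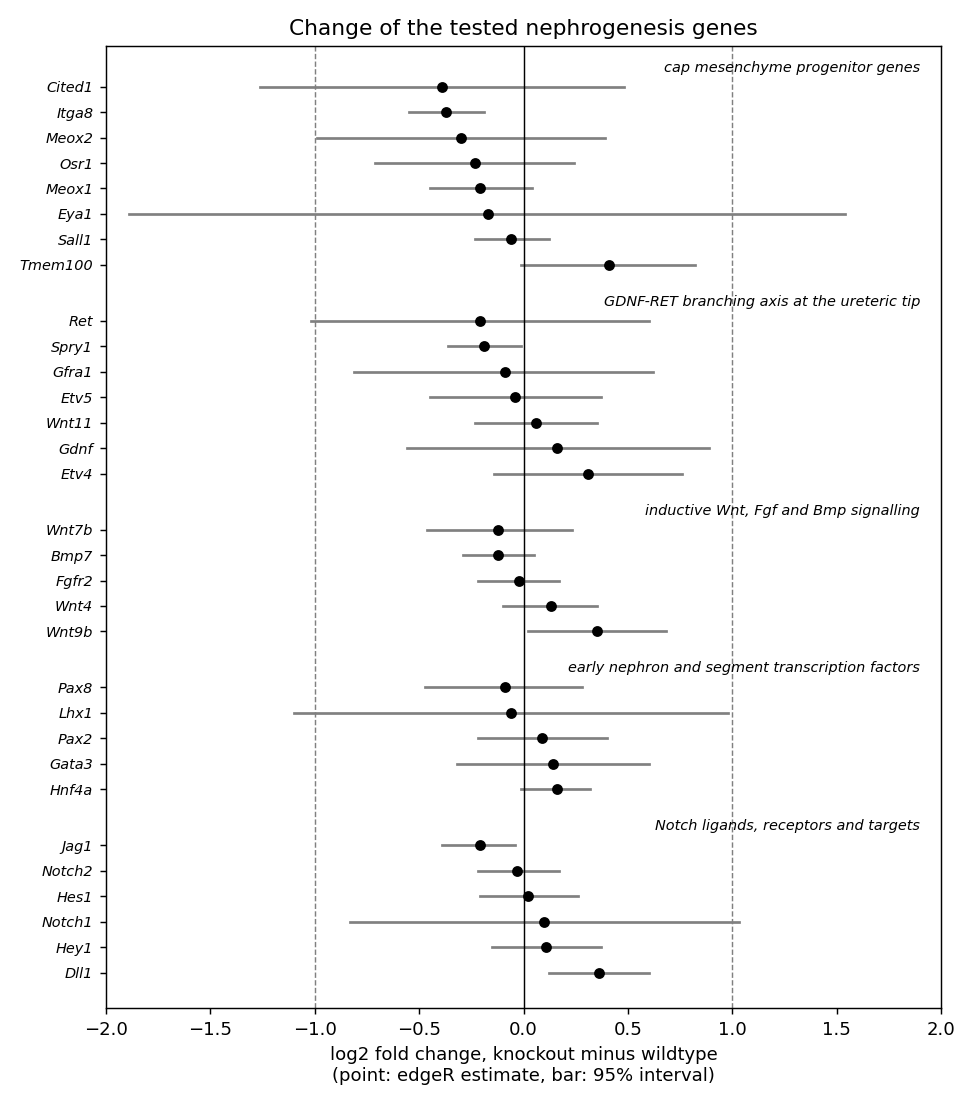
Log2 fold change (knockout minus wildtype) of the 31 tested genes by role; points are edgeR estimates, bars their 95% intervals, and dashed lines mark a 2-fold change. The estimates run from -0.39 to 0.41, and the bars of Eya1, Cited1, Lhx1, Notch1 and Ret are the ones that cross a dashed line.

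Among the cap genes, 7 of 8 tested had a negative log2 fold change, with a median of -0.22, and 0 passed. Over all tested genes 49.7% were below 0, and the median was 0.00. Of 15 further cap genes described below, 5 were below 0 and 10 above, with a median of 0.10. Itga8, which encodes an integrin subunit that the mesenchyme needs for Gdnf expression, had the smallest p of the whole set. The gene spans 12106632 to 12301922 of chromosome 2 on the minus strand of GRCm38. Its level was 120, 107, 94.0 and 117 CPM in knockouts 1 to 4, against 143, 142, 141 and 139 CPM in wildtypes 1 to 4. Every knockout library was below every wildtype library, and the wildtype values were within 4 CPM of each other. It averaged 109 ± 11.8 CPM in knockout and 141 ± 1.71 CPM in wildtype kidneys (SD, n = 4 each), a log2 fold change of -0.37 ± 0.08 (SE) that did not pass (edgeR adjusted p = 0.261). DESeq2 called it (adjusted p = 0.00815, the lowest of 18 alternatives, which reached 0.667). On day 8 Itga8 is known from mesangial and interstitial cells, which Six2-driven Cre does not reach. Of 7 genes of stroma and stromal progenitors, all at 1 TPM or more in every library, 0 passed, and the median log2 fold change was 0.06. The signs were mixed: 5 were above 0 (Col1a1, Col3a1, Pdgfra, Ntn1 and Aldh1a2, from 0.04 to 0.13) and 2 were below 0, both at an unadjusted p under 0.05. The latter were Pdgfrb, a receptor of mesangial cells and pericytes, at 162 ± 10.7 against 188 ± 2.86 CPM, and Foxd1, a stromal progenitor and podocyte gene, at 8.14 ± 0.752 against 12.3 ± 1.94 CPM (SD, n = 4 each). The summed level of the 7, most of it collagen RNA, was 4230 to 4990 CPM in knockout and 4050 to 4820 CPM in wildtype, and its part in the Itga8 values was not tested.

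The promoter of Itga8 is shown because transcription factors of the AP-2 family, which the Kctd1 protein is known to inhibit, bind sequences such as GCCNNNGGC. It spans 250 bases before to 50 after the RefSeq start (GRCm38.p6, chr2:12301895-12302194, minus strand), and capitals mark the match to that motif, which reads alike on both strands.
Itga8: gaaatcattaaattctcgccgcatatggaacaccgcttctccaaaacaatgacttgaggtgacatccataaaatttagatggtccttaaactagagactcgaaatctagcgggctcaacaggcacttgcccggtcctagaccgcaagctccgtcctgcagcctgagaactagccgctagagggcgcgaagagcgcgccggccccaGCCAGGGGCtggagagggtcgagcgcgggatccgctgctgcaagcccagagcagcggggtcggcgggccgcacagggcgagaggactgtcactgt
RefSeq promoters were found for 23 of the 35 genes, in 34 windows. The motif was in 10 of the 34 (29.4%) and in 16.6% of all 32851 windows of the table. Of the 5 genes with an unadjusted p under 0.05, Itga8 was the 1 with a match, and the windows of Dll1, Jag1, Wnt9b and Spry1 held 0. More matches in 1 window were held by Gata3 (3) and by Pax2, Wnt11 and Wnt4 (2 each). The edgeR unadjusted p of these genes ran from 0.242 to 0.646. Windows were not matched for base composition, and a match says nothing of binding. A part of the motif in the Itga8 values was not tested.

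Ligand and receptor of the GDNF-RET axis were both below 1 TPM throughout, and Spry1, Wnt11, Etv5 and Etv4 were at 1 TPM or more in all libraries. Gdnf, the ligand, measured 0.817, 1.0, 1.38 and 1.29 CPM in the knockouts and 0.670, 1.40, 1.08 and 0.866 CPM in wildtype, or 0.156 TPM on average. Ret, the receptor tyrosine kinase of the bud tip, measured 1.89, 2.39, 0.897 and 0.896 against 2.19, 1.54, 1.92 and 1.39 CPM. Both genes overlapped between genotypes. Ret is also known from sympathetic neurons, and Dbh, which makes noradrenaline in such cells, measured 8.40 CPM in knockout 2 and at most 1.30 CPM elsewhere, with 0 counts in knockout 1, knockout 3, wildtype 1 and wildtype 2. Dbh was picked after its values were seen from 7 markers of sympathetic and related neural crest cells. Of these, 1 was at 1 TPM or more in all libraries. Their summed level was 5.53 to 17.1 CPM in knockout, highest in knockout 2, and 4.81 to 13.4 CPM in wildtype. The sum was lowest in wildtype 1, where Ret measured 2.19 CPM, against 2.39 CPM in knockout 2. The part of such cells in the Ret values was not tested. Gfra1, the GDNF co-receptor, measured 9.93, 10.2, 8.56 and 7.57 CPM in the knockouts and 7.91, 6.35, 6.63 and 17.6 CPM in wildtype. Wildtype 4 lay above all other libraries, and without it the log2 fold change of -0.09 ± 0.32 (SE) became 0.38, still not called.

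Genes known as targets and modulators of RET and FGF receptor signalling stood higher. Spry1, a feedback inhibitor of this signalling, was at 18.5 TPM, the ETS factor genes Etv5 and Etv4 at 4.03 and 2.41 TPM, and Wnt11, a RET target of the bud tip, at 8.72 TPM. Spry1 measured 81.7, 76.1, 81.5 and 79.5 CPM in the knockouts and 96.3, 99.4, 87.2 and 80.3 CPM in wildtype. Wildtype 4 fell inside the knockout range, so the groups overlapped (log2 fold change -0.19 ± 0.08 SE, edgeR adjusted p = 0.775). Over the 7 genes of this axis the median log2 fold change was -0.04 and 0 passed. Whether RET or FGF receptors drove the RNA of these targets on day 8 was not tested.

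Of the inductive signals, the Fgf ligands were nearly silent and the Wnt ligands were not. Fgf8, a survival signal of the renal vesicle, had 13 counts in knockout and 5 in wildtype, or 0.189, 0.222, 0.138 and 0.199 CPM against 0.0609, 0, 0.196 and 0 CPM, with overlap. Fgf20, a progenitor maintenance factor, had 1 count in the 8 libraries. Their receptor gene Fgfr2 was at 49.2 TPM and Bmp7, another progenitor survival factor, at 8.99 TPM. By CPM per kb of the longest coding transcript, scaled to the median member, the 2 genes were closer, at 14.7 for Fgfr2 and 10.4 for Bmp7. Wnt9b, the inducer made by the bud and collecting duct, measured 60.2, 42.3, 38.5 and 47.0 CPM in the knockouts and 30.7, 34.3, 41.8 and 40.3 CPM in wildtype. Knockout 3 lay below 2 of the wildtype libraries, and the log2 fold change of 0.35 ± 0.15 (SE) did not pass (edgeR adjusted p = 0.769). Wnt4, which drives the step from mesenchyme to epithelium, measured 67.3, 63.8, 66.9 and 68.6 against 67.8, 56.3, 69.1 and 50.9 CPM. Wnt7b, a collecting duct ligand needed for the medulla, stood at 5.06 TPM. The 5 tested genes had a median of -0.02 and 0 passed.

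**Figure D3:**
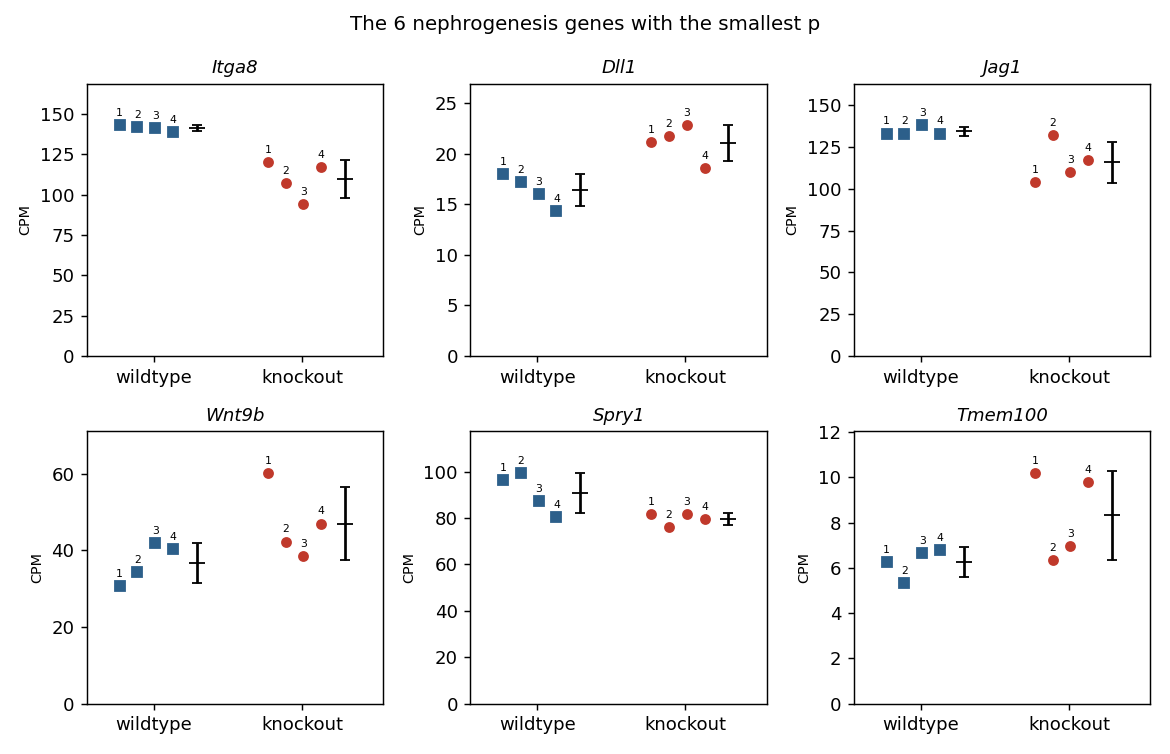
CPM per library of the 6 nephrogenesis genes with the smallest p; numbers are replicate numbers, and bars give mean and SD (n = 4). Itga8 and Jag1 lie lower and Dll1 higher in every knockout library, whereas Wnt9b, Spry1 and Tmem100 overlap.

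Transcription factors of the early nephron that persist in tubules were among the more abundant members. Pax8, of the nephron epithelium, was at 46.4 TPM and Pax2, of nephron and collecting duct, at 11.4 TPM. Hnf4a, the regulator of proximal tubule identity, was at 26.3 TPM, and Gata3, of the collecting duct lineage, at 69.2 TPM. Lhx1, of the renal vesicle, was at 2.03 TPM. Hnf4a measured 244, 237, 224 and 233 CPM in the knockouts and 202, 194, 206 and 238 CPM in wildtype. The groups overlapped through wildtype 4, and the log2 fold change was 0.16 ± 0.07 (SE, edgeR unadjusted p = 0.0613). Pax8 measured 89.5, 67.6, 66.4 and 82.2 against 61.0, 71.4, 103 and 90.8 CPM. Over these 5 genes the median was 0.09 and 0 passed.

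Several of these genes had their highest and lowest values in the same libraries. Lhx1 measured 21, 6.28, 5.24 and 8.46 CPM in the knockouts and 10.4, 9.96, 6.78 and 15.5 CPM in wildtype, a spread of 71.2% (CV) in knockout where counting alone would give about 7.37%. Gata3 measured 78.4, 58.9, 39.0 and 70.0 against 69.6, 54.3, 50.2 and 49.2 CPM, and Pax2 measured 92.0, 68.5, 55.9 and 64.7 against 63.1, 60.3, 68.5 and 71.6 CPM. Knockout 1 held the highest value of all 8 libraries and knockout 3 the lowest for Lhx1, Gata3, Pax2 and Wnt7b. Of the 31 tested genes, 9 peaked in knockout 1 and 9 were lowest in knockout 3. The matching shares of all tested genes were not counted, so these numbers are not read as particular to the set. The summed level of 6 proximal tubule markers was lowest in knockout 3 (3810 CPM) and highest in knockout 1 (4040 CPM). That is a narrow span, with 3830 to 4000 CPM in wildtype. The summed level of 4 fat markers went the other way, lowest in knockout 1 (40.9 CPM) and highest in knockout 3 (202 CPM). Aqp2, the water channel of collecting duct principal cells, measured 478 CPM in knockout 1 and 149 to 202 CPM in the other 7 libraries. The summed level of 4 principal cell markers was 491 to 886 CPM in knockout, highest in knockout 1 and lowest in knockout 2. It was 540 to 593 CPM in wildtype. Aqp2 weighed heavily in that sum. Aqp3 also peaked in knockout 1, at 148 CPM. The other markers of the list did not stand out there. Hsd11b2 was at 236 CPM in knockout 1 and 225 to 260 CPM over the knockouts, and Avpr2 was at 23.8 CPM in knockout 1 and in wildtype 3. The part of principal cells, or of fat, in the values of Lhx1, Gata3, Pax2 and Wnt7b was not tested.

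**Figure D4:**
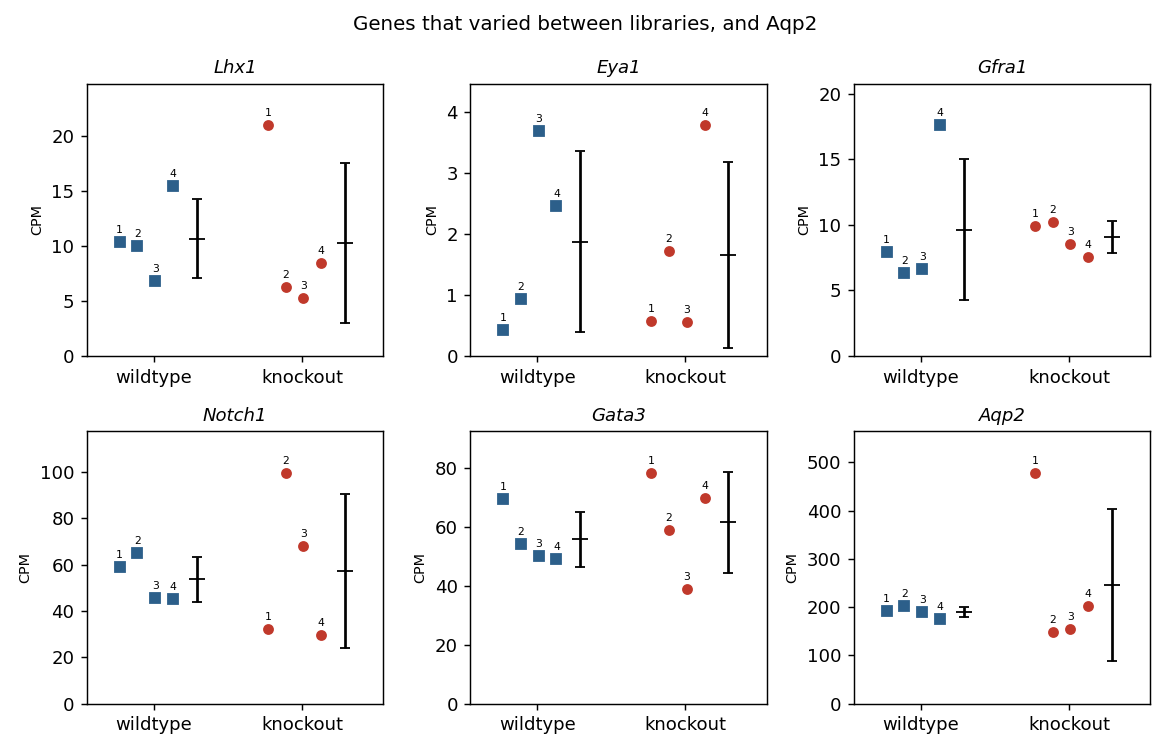
CPM per library of Lhx1, Eya1, Gfra1, Notch1 and Gata3, with the collecting duct gene Aqp2 for comparison; numbers are replicate numbers, and bars give mean and SD (n = 4). Lhx1, Gata3 and Aqp2 peak in knockout 1, Gfra1 in wildtype 4 and Notch1 in knockout 2.

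Notch pathway genes were mostly well expressed, and 2 of the 3 members whose genotypes did not overlap were its ligands. Overlap was absent for 3 of the 31 tested genes (Itga8, Jag1 and Dll1), against 4.03% of all tested genes. Jag1, a ligand that patterns the early nephron and is also made in vessels and tubules, measured 104, 132, 110 and 117 CPM in the knockouts and 133, 133, 138 and 133 CPM in wildtype. The nearest libraries, knockout 2 and wildtype, were 132 and 133 CPM. The log2 fold change was -0.21 ± 0.08 (SE; edgeR adjusted p = 0.700). Dll1, the ligand of the renal vesicle, measured 21.1, 21.7, 22.8 and 18.6 CPM in the knockouts and 18, 17.2, 16.0 and 14.3 CPM in wildtype, and each knockout library was above each wildtype library. Its log2 fold change of 0.36 ± 0.11 (SE) did not pass either (edgeR adjusted p = 0.549), and on the TPM scale its groups overlapped. The 2 ligands thus differed in opposite directions, and 0 of the 6 tested Notch genes passed.

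The receptors and targets showed little difference in mean. Notch2, the receptor required for proximal nephron fates, measured 93.6, 94.0, 76.2 and 90.0 CPM in the knockouts and 90.0, 89.2, 82.8 and 99.1 CPM in wildtype. Notch1 measured 32.1, 99.5, 68.0 and 29.4 against 58.9, 64.8, 45.6 and 45.0 CPM. It spread 3.38-fold, and the knockout libraries held both its highest and its lowest value. Hes1, a repressor induced by Notch, measured 63.7, 58.8, 76.9 and 73.7 against 68.2, 62.3, 76.1 and 62.0 CPM, with a 95% interval of the log2 fold change from -0.21 to 0.26. Hey1, a related target that is also made in arteries, was at 2.16 TPM.

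Hes5, the Notch target of the early nephron, was close to silent. It had 1 count in knockout and 18 in wildtype, and wildtype 3 held nearly all of them, at 0.835 CPM against at most 0.0498 CPM elsewhere. Its promoter is shown because it holds the core motif of RBPJ, the DNA-binding partner of activated Notch, next to this near absence of RNA (GRCm38.p6, chr4:154960673-154960972, plus strand, 250 bases before to 50 after the start). Capitals mark TGGGAA on either strand.
Hes5: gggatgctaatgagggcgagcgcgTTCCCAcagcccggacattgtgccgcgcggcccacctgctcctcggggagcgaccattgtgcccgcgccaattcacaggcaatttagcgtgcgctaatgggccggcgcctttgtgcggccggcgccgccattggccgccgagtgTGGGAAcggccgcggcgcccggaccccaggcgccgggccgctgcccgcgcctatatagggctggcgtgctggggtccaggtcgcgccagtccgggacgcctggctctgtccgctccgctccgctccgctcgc
The window holds 2 such matches, 1 on each strand. Among all RefSeq windows 25.6% hold the motif, and 14.7% of the 34 windows of these genes do. These letters show a match and not a bound site.

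Related genes outside the 35 were described from 6 lists. Of 15 further genes known from cap mesenchyme, 15 were tested and 0 passed (median 0.10), with 10 above 0 and 5 below. Dapl1, known as a marker of nephron progenitors, measured 2.51, 2.95, 4.21 and 4.03 CPM in the knockouts and 1.64, 0.668, 0.639 and 0.289 CPM in wildtype, so each knockout library was above each wildtype library. Its log2 fold change was 2.09 ± 0.44 (SE), which missed the threshold (edgeR adjusted p = 0.230) and passed with DESeq2 (adjusted p = 0.00249, the lowest of 18 alternatives, which reached 0.635). Smoc2, which encodes a secreted matrix protein, measured 146, 147, 163 and 147 against 112, 120, 125 and 116 CPM, again without overlap. It missed the threshold at a log2 fold change of 0.35 ± 0.07 (SE; edgeR adjusted p = 0.140) and passed with DESeq2 (adjusted p = 3.3e-04, the lowest of 18 alternatives, which reached 0.753). The low cap genes Six2, Eya1, Osr1 and Meox2 overlapped between genotypes, as given above.

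Among the relatives of Six2, Six5 and Six4 stood at 5.25 and 0.649 TPM, and Six2, Six3 and Six6 had too few counts to be tested. Six3, which neighbours Six2 in the genome, had 3, 8, 3 and 6 counts in knockout 1 to 4 and 0, 4, 0 and 0 in wildtype 1 to 4. Fitted without a filter on low counts its log2 fold change was 2.14 (edgeR unadjusted p = 0.0710, adjusted p = 0.809), and wildtype 2 lay within the knockout range.

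**Figure D5:**
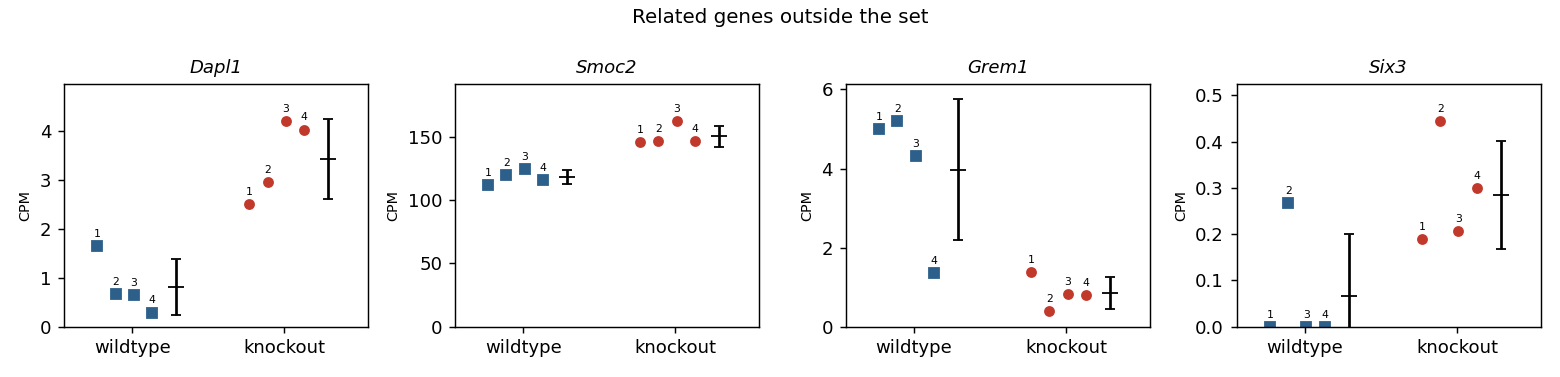
CPM per library of Dapl1, Smoc2, Grem1 and Six3; numbers are replicate numbers, and bars give mean and SD (n = 4). Dapl1 and Smoc2 are higher in each knockout than in each wildtype library, whereas wildtype 4 for Grem1 and wildtype 2 for Six3 lie within the knockout range.

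Of the other pathway genes 0 passed as well. In the GDNF-RET and Fgf list 23 of 24 were tested (median -0.02), where 1 on the higher and 2 on the lower side had an unadjusted p under 0.05. The smallest p belonged to Fgf9, an Fgf ligand of the progenitor niche, at 19.4 ± 5.85 CPM in the knockouts and 28.1 ± 3.03 CPM in the wildtypes (SD, n = 4 each), with overlap through knockout 3. In the Notch list 24 of 25 were tested (median -0.04), with 1 lower at an unadjusted p under 0.05, Lfng, a glycosyltransferase that modifies Notch receptors, at 15.9 ± 1.27 against 20.4 ± 3.88 CPM. In the Wnt and Bmp list 27 of 28 were tested (median 0.00). Grem1, which encodes a secreted Bmp antagonist, was the 1 member under 0.05, at 1.38, 0.389, 0.828 and 0.796 CPM in the knockouts and 4.99, 5.21, 4.32 and 1.35 CPM in wildtype. Wildtype 4 lay within the knockout range. Its log2 fold change of -2.22 ± 0.48 (SE) did not pass (edgeR adjusted p = 0.240), and it passed with DESeq2 (adjusted p = 0.00272, the lowest of 18 alternatives, which reached 0.667) and without wildtype 4 (adjusted p = 0.0266). In the list of other early nephron and segment factors 21 of 21 were tested (median -0.01), where 2 on the higher side and 1 on the lower had an unadjusted p under 0.05. Cdh6, a cadherin of the early proximal nephron, measured 15.7 ± 1.45 against 12.5 ± 0.672 CPM there, without overlap.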

How the data were processed

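RNA was prepared from whole kidneys with a directional library kit, per the labels' protocols. The submitters' processing notes name the mm10 build, DESeq2 1.14.1 and Salmon. An annotation release, a Salmon version and a strand setting are not stated there. The authors deposited estimated counts per gene, rounded to whole numbers and without gene names, and TPM per gene with symbols. Row k of the 47729 count rows was matched to distinct TPM identifier k. As a check, 13251 genes with 50 or more counts throughout, 25 of the 35 among them, kept their count-to-TPM ratio across libraries with a median SD of 7.4e-04 (log2), against 0.281 after a shift by 1 row. Every pair of libraries differed beyond counting noise, with a chi-square of 10.3 or more per degree of freedom.

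Counts were filtered with filterByExpr, scaled with TMM and tested with edgeR's quasi-likelihood test (edgeR 4.0.16, R 4.3.3, genotype alone, robust, two-sided), with Benjamini-Hochberg adjustment. SEs were obtained from the fold change and its F statistic. Scaling, filters, DESeq2 1.42.0, limma 3.58.1 (voom, and log2 of TPM plus 1 or 0.1), the replicate number as a block and left-out libraries were alternatives. The test was checked on simulated counts. A further gene, first placed in the related lists, was taken out of them and is not reported here. The 35 genes, the related lists and the rule for naming genes were chosen with earlier results of these data known. Values per library were given for genes past the threshold or without overlap, the 6 with the smallest p and the core genes of each role, and from a related list up to 3 genes with the smallest p. Members under 1 TPM that have counts were also given by library. Notch1, Aqp2, Dbh, Umod, Cubn, Slc34a1, Pdgfrb and Foxd1 were chosen after their values were seen. Promoters are from RefSeq (GRCm38.p6), coordinates from GENCODE M21 (GRCm38).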

Additional observations from a re-analysis of the deposited data

Results flagged for a closer look

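For 55 genes, each genotype was searched for 1 library standing well away from its 3 fellows. This was met in 8 of 110 sets, and chance alone flags about 5.50 of them (1 in 20). Gfra1 was at 17.6 CPM in wildtype 4 and 6.35 to 7.91 CPM in the other wildtype libraries. Meox1 was at 17.9 CPM in knockout 1 and 15.7 to 16.0 CPM in the other knockouts. Jag1 was at 138 CPM in wildtype 3 against 133 CPM in the others, a small step over a narrow range. Smoc2 was at 163 CPM in knockout 3 and 146 to 147 CPM in the other knockouts. Etv1, an ETS factor gene, was at 8.69 CPM in wildtype 3 and 5.95 to 6.27 CPM in the others. Six3 was at 0.267 CPM in wildtype 2 and 0 in the others. Kctd1 was at 28.9 CPM in wildtype 2 and 32.1 to 32.6 CPM in the others. Aqp2 was at 478 CPM in knockout 1 and 149 to 202 CPM in the other knockouts.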

How the results depend on the processing

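In 17 of 18 alternatives 0 of the 31 tested genes passed, and the other, DESeq2, called 1 (Itga8). DESeq2 called 143 genes in all, 2 of the further cap genes (Dapl1 and Smoc2) and 1 of the Wnt and Bmp list (Grem1), which also had 0 to 1 calls with each library left out. The total over all genes was 27 with no filter, 5 on log2(TPM + 1) and 5 on log2(TPM + 0.1). It was 10 to 52 with each library left out (52 without wildtype 4, 29 without knockout 3). Without the 2 libraries at 1000 or more Xist reads it was 3. Sex was not a term of the model, and its part in the genotype comparison was not tested. Of the 31 tested genes, those without overlap numbered 3 to 5 with each library left out (5 without knockout 3, wildtype 3 or wildtype 4). They numbered 6 without the 2 libraries high in Xist. With all libraries, 4.03% of all tested genes had no overlap. The shares of all genes in the smaller sets are not given here, so these counts are not read as particular to the 31. The cause of the higher counts was not tested. Fewer libraries per group make separation easier. At 5 TPM, 14 of the 35 genes counted as expressed. On log2(TPM + 1) the median of all tested genes shifted to -0.11 and that of the 31 genes to -0.12, with 25 of 31 below 0. Of 558 pairs of gene and alternative, 43 changed sign, over 14 genes that were called in neither. With the replicate number as a block 10 genes passed in all and 0 of the 31. Same-numbered libraries did not deviate together (correlations across genes 0.02, -0.08, 0.04 and 0.01), so the numbers were not taken as pairs. At this depth, genes with a few counts per library, such as Six2, could not be compared.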

Other observations

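Genes of dividing cells were well expressed on day 8. Mki67, a marker of cycling cells, averaged 126 CPM in knockout kidneys and 127 CPM in wildtype ones, and Top2a, a topoisomerase of dividing cells, 96.4 and 103 CPM. Of 6 cycling cell genes 6 were at 1 TPM or more in all libraries and 0 passed (edgeR's quasi-likelihood test), with 0 at an unadjusted p under 0.05 and 0 called by DESeq2. Their median log2 fold change was -0.05.

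Cap mesenchyme genes of the Hox family were at moderate levels on day 8. Hoxd11 was at 9.06 TPM, Hoxa11 at 8.85 TPM and Hoxc10 at 6.09 TPM on average, and Sall1 was at 5.72 TPM. Hoxc10 was below Sall1 in some libraries, such as wildtype 4 (5.97 against 6.48 TPM). The 3 Hox genes were chosen after their values were seen. Brown fat RNA varied between libraries of both genotypes, with Ucp1, the uncoupling protein of brown fat, at 15.1 CPM in knockout 1 and 127 CPM in knockout 3.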
